A study of Mus musculus with 12 samples.

Results

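Transcript levels in oocytes of PND 40 mice were compared with those in oocytes of PND 13 mice, the oldest and the youngest cohort of a study of meiotic competence across the pubertal transition (PND, postnatal day). The comparison took every pool that the sample labels place in these cohorts, 3 pools per cohort and 6 of the 12 pools of the series, and all genes. The remaining pools, 3 of PND 16 small and 3 of PND 16 large mice, divided by body weight, entered the statistical model and are shown beside the main values. All mice were CD-1, an outbred strain, without hormonal stimulation, and all oocytes were held in arrest with milrinone, an inhibitor of the phosphodiesterase that degrades cyclic AMP. Oocytes were taken from antral follicles and freed of cumulus cells by pipetting. They came from 3 mice per cohort, and a pool held 18 to 45 oocytes. How mice map to pools is not stated, so p-values measure the spread between pools. Age, follicle size and oocyte size cannot be told apart in this comparison.

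A growing oocyte transcribes and stores the mRNAs and proteins that the egg and the early embryo will use, and its transcription falls silent as growth ends. It stays arrested in prophase of meiosis I while cyclic AMP keeps cyclin-dependent kinase 1 inactive. Competence to leave that arrest is gained late in growth. Levels are given as CPM, the counts of a gene as a share of a pool's total, scaled to 1000000 counts after TMM normalization, and a difference is a log2 fold change, PND 40 relative to PND 13, so that 1 is a doubling. Values of single pools follow the order of replicates 1 to 3. Libraries were made from total RNA after removal of ribosomal RNA, which does not select for poly(A) tails. CPM is a share of a pool's RNA, and the amount of RNA in an oocyte was not measured.

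The total count ranged from 20153626 to 24762189 in the PND 13 pools and from 23422996 to 27418358 in the PND 40 pools. Rn45s, the ribosomal RNA precursor, took 1.48% to 2.41% of counts at PND 13 and 0.520% to 0.581% at PND 40. Oocyte genes were high in every pool, although the summed level of 20 oocyte genes was lower at PND 40. This sum was 31005, 37511 and 33636 CPM at PND 13 and 27894, 28494 and 27672 CPM at PND 40. Gdf9, a growth factor secreted by the oocyte, had 3302, 4073 and 3444 CPM at PND 13 and 4004, 4017 and 3928 CPM at PND 40. RNA of granulosa cells, which surround the oocyte, was uneven. The summed level of 35 granulosa and cumulus cell genes was 1034, 542 and 1154 CPM in PND 13 replicates 1 to 3 and 651 to 685 CPM at PND 40. Inha, an inhibin subunit of granulosa cells, had 97.1, 2.34 and 143 CPM at PND 13 and 11.4, 13.2 and 11.7 CPM at PND 40. Foxl2, the transcription factor that defines granulosa cells, had 18.6, 0.391 and 20.02 CPM at PND 13 and 1.84, 3.11 and 1.73 CPM at PND 40. Serpine2 and Esr2, large parts of the sum, did not follow these genes. Serpine2 had 199, 270 and 227 CPM at PND 13 and 291, 224 and 294 CPM at PND 40. Esr2 had 95.1, 87.2 and 74.2 CPM at PND 13 and 142, 148 and 142 CPM at PND 40. Slc18a2, Prkg2 and Cyp11a1 were also higher in every PND 40 pool than in any PND 13 pool. The pools thus differed less in the sum than in Inha and Foxl2. In both PND 13 replicates 1 and 3, 21 of the 35 genes lay above every PND 40 pool, compared with 32.4% of all genes tested, and in PND 13 replicate 2, 23 of the 35 lay below every PND 40 pool, compared with 39.3%. No defining granulosa gene was at 0 in any of these pools. Fewer granulosa cells and less granulosa RNA per cell cannot be told apart in bulk samples. C1qa and Hba-a1, of macrophages and red blood cells, had no count in any of the 6 pools, and Cyp17a1, of theca cells, had at most 0.246 CPM. The 21 theca and stromal genes summed to 183 to 225 CPM at PND 13 and 217 to 235 CPM at PND 40. Of these, Col1a1 had at most 3.65 CPM and Dcn at most 0.469 CPM. The 12 endothelial genes summed to 99.1 to 107 and 113 to 121 CPM. Pecam1 alone had 55.3 to 60.5 CPM of this, while Cdh5 had at most 0.143 CPM. The 17 immune and blood genes summed to 4.46 to 5.21 and 4.76 to 6.65 CPM. The 9 surface epithelium genes summed to 421 to 494 and 714 to 741 CPM, most of it Cdh1, while Krt18 and Krt19 reached at most 0.860 CPM. Results are therefore also given without PND 13 replicates 1 and 3, which leaves 1 PND 13 pool that is assumed to vary like the other cohorts. That pool, replicate 2, was the least like the others of its cohort over all genes tested. Its log2 CPM correlated at 0.952 with replicate 1 and 0.952 with replicate 3, which correlated with each other at 0.981. A call kept or lost there rests on 1 unlike pool and does not isolate granulosa RNA.

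**Figure D1:**
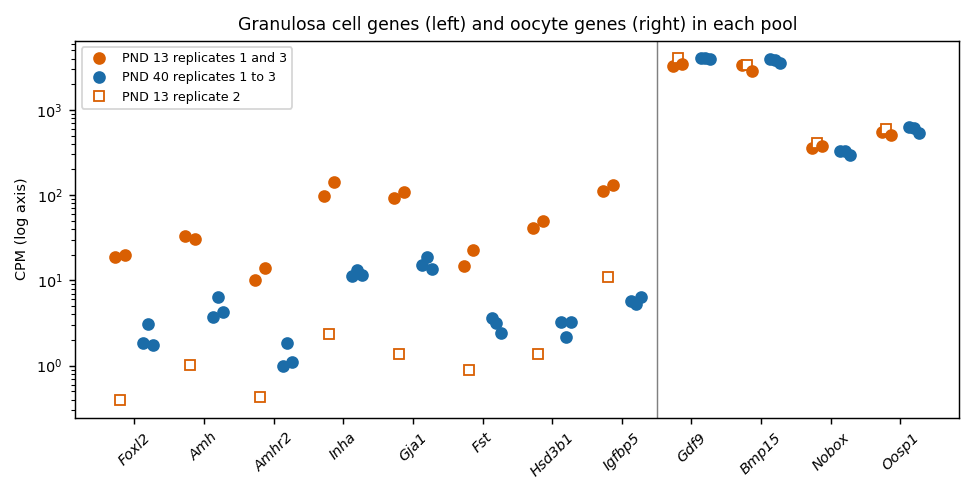
Level of 8 granulosa cell genes (left) and 4 oocyte genes (right) in each pool, in CPM on a log axis. Filled orange circles are PND 13 replicates 1 and 3, the open square is PND 13 replicate 2 and blue circles are the 3 PND 40 pools. For the granulosa genes drawn, PND 13 replicates 1 and 3 lie above and replicate 2 below the PND 40 pools. The exception is Igfbp5, whose 3 PND 13 pools all lie above them. The oocyte genes drawn differ little. Of the oocyte genes not drawn, Zp2, Ddx4 and Nlrp5 are lower and Mos is higher in every PND 40 pool. Granulosa genes of the list of 35 that are not drawn include Esr2, Slc18a2, Prkg2 and Cyp11a1, which are higher in every PND 40 pool.

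A gene was called when its adjusted p did not exceed 0.05 and its levels differed 1.5-fold or more. Of 13943 genes tested, 880 were higher (6.31%) and 1757 lower (12.6%) at PND 40. The fall was larger than the rise: 63.3% of the lower genes but 49.3% of the higher genes changed by at least 2-fold. The excess of lower genes depended on the 1.5-fold criterion, since without it 2277 genes were higher and 2335 lower. Of the 19 oocyte genes tested, none was higher and 4 were lower (21.1%). Their median log2 fold change was -0.29, compared with 0.0044 over all genes tested, and without the fold criterion 5 were higher and 9 lower. Of the 30 granulosa genes tested, 3 were higher (10%) and 5 lower (16.7%). Their median log2 fold change was -1.31 in all pools and 1.08 without PND 13 replicates 1 and 3. The fit without these pools thus carries a granulosa difference of the opposite sign. The 3 pools of one cohort lay apart from the 3 of the other for 873 of the 880 and 1694 of the 1757 genes, and for 50.8% of all genes tested. Without PND 13 replicates 1 and 3, 275 of the 880 genes (1.97% of those tested) and 823 of the 1757 (5.9%) were still called. The 4 pools compared there were also part of the full fit. They gave a median log2 fold change of 0.91 for the higher genes, compared with 0.99 in all pools, and of -1.02 for the lower genes, compared with -1.18.

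Among genes with at least 10 CPM in the higher cohort and no overlap between the pools, the 12 largest falls included receptors and ligands of growth signals. Fzd5, a Frizzled receptor for Wnt ligands, had 42.7, 53.4 and 57.8 CPM at PND 13 and 2.66, 3.94 and 6.25 CPM at PND 40, a log2 fold change of -3.57 (SE 0.45, adjusted p = 0.000271). It was high in all PND 13 pools and low in all PND 40 pools. Wnt9a, a Wnt ligand, had 9.36, 13.7 and 11.2 CPM at PND 13 and 0.472, 1.63 and 1.84 CPM at PND 40, a log2 fold change of -3.11 (SE 0.58, adjusted p = 0.00168). Ptch1, the receptor for Hedgehog ligands and also a member of the theca and stromal list, had 16.7, 20.2 and 28.4 CPM at PND 13 and 2.66, 2.39 and 3.56 CPM at PND 40, a log2 fold change of -2.92 (SE 0.30, adjusted p = 3.84e-05). Without PND 13 replicates 1 and 3 these 3 genes had log2 fold changes of -3.63, -3.37 and -2.81. In the PND 16 cohorts Fzd5 went from 31.1 ± 15.2 CPM (mean ± SD, n = 3) in small to 8.51 ± 3.06 in large mice, Wnt9a from 5.32 ± 2.80 to 1.16 ± 0.825 and Ptch1 from 13.000 ± 3.69 to 5.53 ± 1.55 (adjusted p = 0.0192, 0.028 and 0.0144). The means of Fzd5 and Ptch1 thus descended from PND 13 through the small and large mice of PND 16 to PND 40, while Wnt9a was as low in PND 16 large as at PND 40.

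The promoters of these 3 signalling genes are shown because the genes fell together. How far granulosa RNA entered the fall of these genes was not tested. Each runs from 250 bases before to 50 bases after the RefSeq transcription start on GRCm38.p6, read 5′ to 3′ on the gene's strand. Capitals mark GC boxes, the letters GGGCGG or, on the other strand, CCGCCC, with overlapping matches counted. Fzd5 lies at chr1:64737701-64738000 on the minus strand, Wnt9a at chr11:59306680-59306979 on the plus strand and Ptch1 at chr13:63565686-63565985 on the minus strand, inside the gene as GENCODE M21 draws it (chr13:63508328-63573598).
Fzd5: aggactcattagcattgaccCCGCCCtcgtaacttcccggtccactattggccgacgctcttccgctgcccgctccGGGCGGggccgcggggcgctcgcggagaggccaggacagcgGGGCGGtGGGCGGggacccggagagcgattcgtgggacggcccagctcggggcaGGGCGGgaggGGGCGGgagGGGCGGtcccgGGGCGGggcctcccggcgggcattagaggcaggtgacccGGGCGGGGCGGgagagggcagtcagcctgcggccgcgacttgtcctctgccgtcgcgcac
Wnt9a: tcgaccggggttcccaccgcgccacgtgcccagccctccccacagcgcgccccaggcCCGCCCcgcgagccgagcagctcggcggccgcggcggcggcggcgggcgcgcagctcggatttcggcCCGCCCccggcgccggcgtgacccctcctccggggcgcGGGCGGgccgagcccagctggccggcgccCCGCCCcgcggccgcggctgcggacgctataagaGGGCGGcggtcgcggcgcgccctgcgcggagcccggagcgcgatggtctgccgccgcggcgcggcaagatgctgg
Ptch1: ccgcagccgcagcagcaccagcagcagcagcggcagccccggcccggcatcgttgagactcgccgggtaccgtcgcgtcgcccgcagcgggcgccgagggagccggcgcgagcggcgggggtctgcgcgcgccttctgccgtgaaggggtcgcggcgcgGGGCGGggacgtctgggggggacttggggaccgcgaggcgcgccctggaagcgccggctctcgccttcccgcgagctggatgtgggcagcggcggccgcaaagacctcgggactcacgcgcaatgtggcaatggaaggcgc
The windows held 10, 5 and 1 GC boxes. Of 27025 mouse promoters of the same length, 35.9% held at least 1 and 5.50% at least 4. The G and C content was 75.7% for Fzd5, 83.3% for Wnt9a and 76.3% for Ptch1, compared with a median of 52.7% over all promoters. The matches are a description of the letters, and binding was not measured.

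The other large falls were of 2 kinds. Tmem64, a regulator of calcium pumps, had 25.7, 18.8 and 28.04 CPM at PND 13 and 2.75, 2.35 and 3.23 CPM at PND 40 (log2 fold change -3.12, SE 0.26, adjusted p = 2.6e-05). Cdc42ep4, an effector of the GTPase CDC42 that shapes actin, had 18.4, 26.6 and 25.8 CPM at PND 13 and 1.37, 2.75 and 3.97 CPM at PND 40 (log2 fold change -3.12, SE 0.40, adjusted p = 0.00018). Sgpl1, which cleaves sphingosine 1-phosphate, had 12.8, 12.2 and 16.05 CPM at PND 13 and 1.80, 2.07 and 1.80 CPM at PND 40 (log2 fold change -2.85, SE 0.30, adjusted p = 4.17e-05). In these genes the PND 13 pools were alike and stood well above every PND 40 pool. Trim6, a ubiquitin ligase, had 27.1, 9.22 and 18.99 CPM at PND 13 and 0.300, 0.279 and 3.16 CPM at PND 40, and at 19.5 ± 0.595 CPM the PND 16 large pools lay within the range of PND 13 (adjusted p = 0.0236 for PND 40 vs. PND 16 large). Gin1, a retrotransposon-derived integrase gene that overlaps Ppip5k2, had 21.6, 20.98 and 32.7 CPM at PND 13 and 3.39, 4.54 and 1.10 CPM at PND 40. By contrast, Plau, Igfbp5, Heph and Ank2 were far higher in PND 13 replicates 1 and 3 than in replicate 2. Plau, the urokinase-type plasminogen activator, had 9.46, 0.352 and 23.9 CPM at PND 13 and 0.129, 0.159 and 0.0735 CPM at PND 40 (log2 fold change -6.49, SE 1.62, adjusted p = 0.0128), and Igfbp5, an IGF-binding protein and one of the granulosa genes, had 112, 10.8 and 131 CPM at PND 13 and 5.66, 5.34 and 6.36 CPM at PND 40 (log2 fold change -3.87, SE 0.75, adjusted p = 0.00445). Heph, a copper-dependent ferroxidase, had 14.9, 1.52 and 20.4 CPM at PND 13 and 1.24, 0.796 and 0.588 CPM at PND 40, and Ank2, a membrane adaptor, had 15.9, 3.75 and 21.2 CPM at PND 13 and 1.54, 1.47 and 2.90 CPM at PND 40. Without PND 13 replicates 1 and 3 these 4 genes had log2 fold changes of -1.51, -0.90, -0.80 and -0.92, and of them only Igfbp5 was still called (adjusted p = 0.0496). Trim6 and Gin1 also lost their calls there, at adjusted p = 0.122 and 0.0562.

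The 12 largest rises, chosen by the same rule, were of genes with varied roles. Myocd, a coactivator of serum response factor, had 3.01, 1.99 and 1.92 CPM at PND 13 and 36.6, 20.6 and 12.7 CPM at PND 40, a log2 fold change of 3.34 (SE 0.43, adjusted p = 0.000193). Coro2b, a coronin that binds actin, had 3.25, 3.44 and 2.62 CPM at PND 13 and 17.97, 30.4 and 28.4 CPM at PND 40, a log2 fold change of 3.04 (SE 0.31, adjusted p = 4.19e-05). Rnf152, a lysosomal ubiquitin ligase that restrains mTORC1, had 5.02, 8.21 and 4.01 CPM at PND 13 and 32.2, 26.9 and 25.9 CPM at PND 40, a log2 fold change of 2.30 (SE 0.23, adjusted p = 3.7e-05). Every PND 40 pool of these genes lay far above every PND 13 pool. Slc16a12, a creatine transporter, had 1.15, 3.01 and 0.901 CPM at PND 13 and 13.9, 14.6 and 16.5 CPM at PND 40, and Cxcr3, a chemokine receptor encoded on the X chromosome, had 6.07, 4.06 and 3.19 CPM at PND 13 and 29.4, 25.9 and 29.98 CPM at PND 40. Cntn6, a contactin of the neural cell surface, had 5.25, 4.14 and 1.84 CPM at PND 13 and 13.6, 25.1 and 27.6 CPM at PND 40. The log2 fold changes of the 12 genes ran from 2.30 to 3.34. Without PND 13 replicates 1 and 3, Abca9, Lmo3, Thsd7b and Ddx60 lost their calls (adjusted p = 0.0898, 0.11, 0.189 and 0.0648). Lmo3, which had 1.72, 6.68 and 0.287 CPM at PND 13 and 21.1, 20.5 and 18.2 CPM at PND 40, was highest at PND 13 in replicate 2, the opposite of the granulosa genes.

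The rises fell at different steps. Map3k21, a mixed-lineage kinase, had 2.34, 4.06 and 3.73 CPM at PND 13 and 19.04, 23.02 and 25.8 CPM at PND 40, and its PND 16 large pools, at 1.90 ± 0.457 CPM, were no higher than PND 13. Ttbk1, a tau kinase, stood at 1.88 ± 0.0970 CPM in PND 16 large and Ddx60, an RNA helicase of antiviral defence, at 3.87 ± 0.0573, compared with means of 11.5 ± 1.11 and 22.2 ± 7.72 CPM at PND 40. All of these differed between PND 40 and PND 16 large (adjusted p = 0.00103, 0.00417 and 0.00466). Abca9, a lipid transporter, was already at 30.6 ± 2.51 CPM in PND 16 large against 26.1 ± 3.49 CPM at PND 40, and Lmo3, a LIM-domain cofactor whose locus overlaps other transcripts, at 24.3 ± 1.61 against 19.9 ± 1.52 CPM. For Abca9 and Lmo3 the adjusted p between PND 40 and PND 16 large was 0.84 and 0.871.

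**Figure D2:**
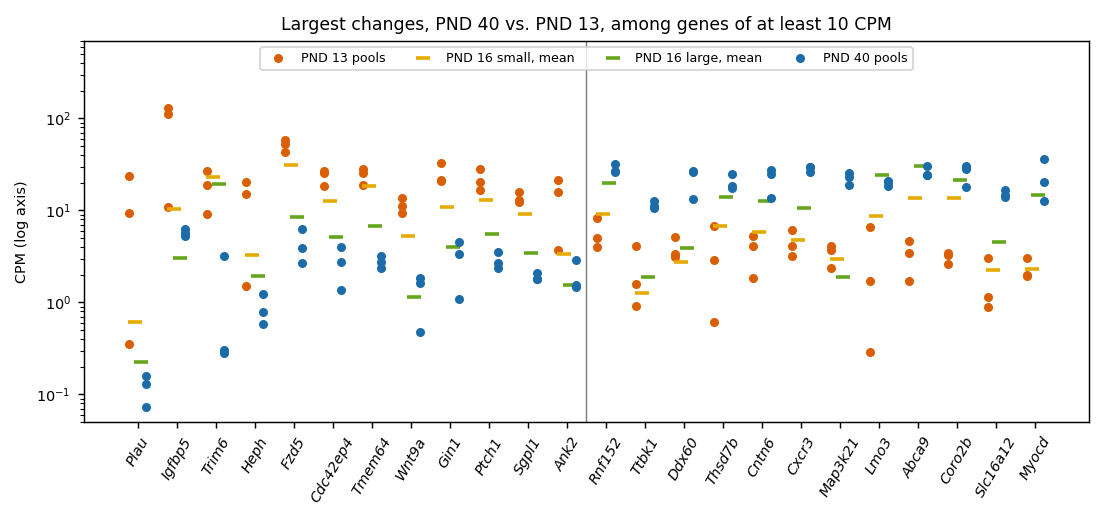
Level of the 12 genes with the largest fall (left of the line) and the 12 with the largest rise (right) in each PND 13 pool (orange) and PND 40 pool (blue), in CPM on a log axis, with the means of PND 16 small (yellow bars) and PND 16 large (green bars). The genes were chosen for having no overlap between the cohorts. For Plau, Igfbp5, Heph and Ank2 one PND 13 pool, replicate 2, lies far below the rest.

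Of 32 meiotic kinases and cyclins tested, 2 were higher (6.25%) and 3 lower (9.38%), shares near the 6.31% and 12.6% of all genes. Without the fold criterion 13 were higher (40.6%, compared with 16.3% of all genes) and 5 lower, and the median log2 fold change was 0.32, compared with 0.0044 over all genes tested. Wee1, the kinase that inhibits cyclin-dependent kinases, had 98.4, 99.1 and 95.01 CPM at PND 13 and 43.1, 40.3 and 47.3 CPM at PND 40, a log2 fold change of -1.16 (SE 0.12, adjusted p = 3.91e-05). Aurka, the spindle pole kinase Aurora A, had 166, 186 and 168 CPM at PND 13 and 280.1, 274 and 277 CPM at PND 40, a log2 fold change of 0.68 (SE 0.078, adjusted p = 5.85e-05). In both genes the pools were close within each cohort and did not overlap between cohorts. Ccnb3, a cyclin of the meiosis I to anaphase transition, rose from 53.9 ± 9.90 to 84.7 ± 3.66 CPM (log2 fold change 0.65, SE 0.13, adjusted p = 0.00249), and Cdk2 and Ccne2 fell by 0.65 and 0.60 on the log2 scale. Of these 5 genes, Wee1 and Ccnb3 were still called without PND 13 replicates 1 and 3. Cdk1 itself stood at 69.9 ± 7.80 and 77.3 ± 2.35 CPM (log2 fold change 0.15, SE 0.09, adjusted p = 0.229). Ccnb1, its cyclin, had a log2 fold change of 0.44 (SE 0.089, adjusted p = 0.00242), and Mos, which activates the MAP kinase pathway that holds the egg in metaphase II, one of 0.38 (SE 0.087, adjusted p = 0.00511), both under the 1.5-fold criterion.

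Of 34 genes of the anaphase-promoting complex and spindle checkpoint, 3 were higher (8.82%, near the 6.31% of all genes) and none lower (edgeR quasi-likelihood test). The higher genes numbered 5 without PND 13 replicate 2 and 1 without PND 13 replicate 3, and 12 (35.3%, compared with 16.3% of all genes) without the fold criterion. Bub1b, the checkpoint kinase BubR1, had 1237, 1390.0 and 1091 CPM at PND 13 and 2175, 2328 and 2393 CPM at PND 40, a log2 fold change of 0.89 (SE 0.081, adjusted p = 2.6e-05). Ttk, the checkpoint kinase Mps1, rose from 339 ± 27.7 to 517 ± 11.8 CPM, and Anapc15, a subunit of the complex, from 26.1 ± 5.02 to 41.6 ± 0.861 CPM. Bub1b was still called without PND 13 replicates 1 and 3. Ttk and Anapc15 had log2 fold changes of 0.55 and 0.50 there and, like Aurka (adjusted p = 0.00829 with a log2 fold change of 0.58), missed a criterion. Among 23 genes of the cyclic AMP pathway, 1 was higher (4.35%) and 3 were lower (13.0%), compared with 6.31% and 12.6% of all genes. Adcy6, an adenylyl cyclase that makes cyclic AMP, had 72.9, 68.3 and 67.7 CPM at PND 13 and 34.5, 31.2 and 33.7 CPM at PND 40, a log2 fold change of -1.07 (SE 0.13, adjusted p = 9.55e-05). Prkacb, a catalytic subunit of protein kinase A, had 41.6, 47.8 and 47.6 CPM at PND 13 and 23.2, 21.4 and 23.995 CPM at PND 40, a log2 fold change of -0.997 (SE 0.11, adjusted p = 6.08e-05). Pde1a, a phosphodiesterase, fell from 7.26 ± 2.53 to 3.13 ± 0.257 CPM, whereas Pde4d, another, rose from 9.79 ± 2.43 to 16.4 ± 1.77 CPM, a call lost in 4 of the 6 fits without 1 pool. Pde3a, the phosphodiesterase that milrinone inhibits, stood at 308 ± 10.2 and 362 ± 7.84 CPM and was not called (log2 fold change 0.23, SE 0.062, adjusted p = 0.0115), and neither was Gpr3, the receptor that keeps cyclic AMP high (log2 fold change 0.25, SE 0.10, adjusted p = 0.0741).

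Among 12 genes of the zona pellucida, egg surface and cortical granules, 1 was higher (8.33%) and 2 lower (16.7%). Of all genes, 6.31% were higher and 12.6% lower. Zp2, a structural glycoprotein of the zona pellucida that sperm bind, had 3551, 3988 and 4089 CPM at PND 13 and 2121, 2262 and 2124 CPM at PND 40, a log2 fold change of -0.84 (SE 0.085, adjusted p = 3.87e-05). Zp1 stood at 1267 ± 123 and 926 ± 21.5 CPM (log2 fold change -0.45, SE 0.077, adjusted p = 0.000746) and Zp3 at 1819 ± 189.6 and 1249.7 ± 14.3 CPM (log2 fold change -0.54, SE 0.08, adjusted p = 0.000291), each lower in every PND 40 pool than in any PND 13 pool but under the 1.5-fold criterion. Cd9, a tetraspanin needed for sperm fusion, fell from 109.5 ± 8.42 to 60.5 ± 5.51 CPM, a call lost in each of the 6 fits without 1 pool. Oosp2, an oocyte-secreted protein, rose from 88.5 ± 10.01 to 135 ± 21.04 CPM. The oocyte's own growth factors Gdf9, Bmp15 and Bmp6 had log2 fold changes of 0.14 (SE 0.08, adjusted p = 0.189), 0.23 (SE 0.076, adjusted p = 0.0316) and 0.54 (SE 0.074, adjusted p = 0.000194), none of them called, and Kit, the receptor for the granulosa factor KIT ligand, one of -0.076 (SE 0.062, adjusted p = 0.375). Of 29 growth factors and receptors, 2 were higher (6.90%) and 3 lower (10.3%), near the shares of all genes. Tgfbr1, a type I receptor through which GDF9 signals, had 139, 123 and 137 CPM at PND 13 and 61.1, 60.1 and 56.2 CPM at PND 40, a log2 fold change of -1.17 (SE 0.12, adjusted p = 4.11e-05). Igf1r, the IGF receptor, fell from 145 ± 20.8 to 91.9 ± 2.55 CPM, and Smad5, a transducer of BMP signals, from 85.4 ± 16.8 to 53.01 ± 10.03 CPM. Erbb4, a receptor of EGF-like ligands, rose from 5.19 ± 2.89 to 21.5 ± 3.10 CPM, and Egfr rose by a log2 fold change of 0.94. Of the 3 members of the zona list and 5 of the growth factor list that were called, Zp2 and Tgfbr1 alone were still called without PND 13 replicates 1 and 3.

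Of 28 genes on the list of oocyte transcription factors, 4 were higher (14.3%) and 3 lower (10.7%), compared with 6.31% and 12.6% of all genes. Myocd, the largest of the 12 rises above and a coactivator of serum response factor, is 1 of the 4. The list was chosen with earlier results of these data known, so its share of higher genes is not independent evidence. Sohlh2, a factor of early oocyte growth, had 4.78, 4.02 and 2.91 CPM at PND 13 and 8.15, 9.24 and 10.1 CPM at PND 40, a log2 fold change of 1.23 (SE 0.23, adjusted p = 0.0015). Obox1 and Obox2, members of a cluster of homeobox genes that overlap and resemble each other so that reads may be shared, rose by log2 fold changes of 0.61 and 1.18. Tbpl2, the TATA-binding protein of growing oocytes, fell from 25.6 ± 2.60 to 14.4 ± 3.36 CPM. Lhx8 and Nobox, which maintain the oocyte programme, were not called (log2 fold changes -0.022, SE 0.073, adjusted p = 0.846 and -0.26, SE 0.072, adjusted p = 0.0146), and Foxo3, which restrains follicle activation, had one of 0.58 (SE 0.077, adjusted p = 0.000145). Of these, Sohlh2 and, from the largest rises, Myocd were still called without PND 13 replicates 1 and 3.

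Maternal effect genes, whose products from the egg are needed by the embryo, were called lower for 5 of 38 (13.2%) and higher for 2 (5.26%). These shares were near the 12.6% and 6.31% of all genes. Padi6, of the cytoplasmic lattices, had 4176, 5870.3 and 5132 CPM at PND 13 and 2845, 3051 and 3162 CPM at PND 40, a log2 fold change of -0.74 (SE 0.15, adjusted p = 0.0024). Nlrp5, a core subunit of the subcortical maternal complex, had 1644, 2799.8 and 1906 CPM at PND 13 and 1175, 1235 and 1308 CPM at PND 40, a log2 fold change of -0.77 (SE 0.18, adjusted p = 0.00754). The PND 13 pools were spread in both genes, and each lay above every PND 40 pool. Nlrp4c, of the same NLRP family, fell from 66.5 ± 10.7 to 39.2 ± 3.59 CPM, and Ago2, the slicer of small RNA pathways, had 92.6, 106 and 107 CPM at PND 13 and 37.4, 53.3 and 59.7 CPM at PND 40. The complex's other subunits differed less: Ooep had a log2 fold change of 0.32 (SE 0.076, adjusted p = 0.00579), Tle6 of -0.22 (SE 0.10, adjusted p = 0.102) and Khdc3 of -0.41 (SE 0.10, adjusted p = 0.00702), none of them called. Hsf1, a heat shock factor, rose from 62.2 ± 7.41 to 94.03 ± 5.46 CPM, a call lost in 4 of the 6 fits without 1 pool. The 4 genes Padi6, Nlrp5, Nlrp4c and Ago2 were also called without PND 13 replicates 1 and 3.

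Of 41 genes of DNA and histone methylation, 8 were lower (19.5%, compared with 12.6% of all genes) and 1 was higher (2.44%, compared with 6.31%). The list's median log2 fold change was 0.014, and without the fold criterion 12 were lower and 9 higher. Kdm1b, the histone H3K4 demethylase required for imprint establishment in oocytes, had 1132, 1128 and 1139 CPM at PND 13 and 471, 486 and 469.5 CPM at PND 40, a log2 fold change of -1.25 (SE 0.096, adjusted p = 2.6e-05). The pools of this gene were nearly equal within each cohort. Ehmt2, the H3K9 methyltransferase G9a, had 34.3, 37.8 and 41.4 CPM at PND 13 and 12.1, 10.8 and 10.8 CPM at PND 40, a log2 fold change of -1.75 (SE 0.16, adjusted p = 2.6e-05). Kdm5a, Kdm5b and Kdm4c, further demethylases, fell by 1.40, 1.49 and 1.53 and Kmt2a, an H3K4 methyltransferase, by 1.73 on the log2 scale. Nsd1, an H3K36 methyltransferase, had 619, 569 and 507 CPM at PND 13 and 970.0, 973 and 1029.9 CPM at PND 40, the 1 rise (log2 fold change 0.81, SE 0.086, adjusted p = 4.2e-05). Dnmt3a and Dnmt3l, which set methylation in the oocyte, were not called (log2 fold changes 0.18, SE 0.085, adjusted p = 0.13 and 0.20, SE 0.11, adjusted p = 0.174), nor was Dnmt1, at 5835 ± 341 and 4838 ± 403 CPM. Without PND 13 replicates 1 and 3, 6 of the 8 lower genes and Nsd1 were still called.

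Genes that store or translate mRNA and genes that remove it moved in both directions. Of 45 storage and translation genes 6 were lower and 2 higher, shares near those of all genes, and all 6 lower genes were still called without PND 13 replicates 1 and 3. Ddx6, an RNA helicase of repressive granules, had 311, 249 and 316 CPM at PND 13 and 119, 106 and 117 CPM at PND 40, a log2 fold change of -1.36 (SE 0.14, adjusted p = 4.47e-05). Patl2, an oocyte repressor of translation, had 159, 187 and 162 CPM at PND 13 and 73.6, 75.1 and 75.2 CPM at PND 40, a log2 fold change of -1.18 (SE 0.12, adjusted p = 4.17e-05). Ythdf2, a reader of N6-methyladenosine that the egg needs to clear transcripts, had 236, 234 and 249 CPM at PND 13 and 115, 116 and 114 CPM at PND 40, a log2 fold change of -1.06 (SE 0.09, adjusted p = 2.6e-05). In these genes PND 40 pools were nearly equal and PND 13 pools were more than 2-fold above them. Cpeb1 and Ybx2, a regulator of tail length and an mRNA-binding protein, were not called (log2 fold changes 0.26, SE 0.063, adjusted p = 0.00676 and -0.27, SE 0.086, adjusted p = 0.0285). Of 39 decay genes 6 were lower (15.4%) and 3 higher (7.69%), compared with 12.6% and 6.31% of all genes. Cnot7, a deadenylase subunit, had 409.8, 362 and 284 CPM at PND 13 and 649, 632 and 601 CPM at PND 40, a log2 fold change of 0.83 (SE 0.13, adjusted p = 0.000365). Dcp1a, of the decapping complex, had 1452, 1414 and 1231 CPM at PND 13 and 2133, 2096 and 2064 CPM at PND 40, a log2 fold change of 0.62 (SE 0.074, adjusted p = 7.17e-05). Btg4, the adaptor that brings the deadenylase to maternal mRNA, had a log2 fold change of 0.57 (SE 0.062, adjusted p = 4.57e-05), under the 1.5-fold criterion. Tob1, an antiproliferative adaptor of the deadenylase, fell from 74.4 ± 6.31 to 33.96 ± 1.73 CPM, Ythdf1 from 112 ± 11.01 to 47.2 ± 2.55 CPM, and Zfp36l1, which directs mRNA to decay, by 3.14 on the log2 scale. Dcp1a missed the fold criterion without PND 13 replicates 1 and 3, with a log2 fold change of 0.57, while Cnot7 kept its call.

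Of 33 small RNA pathway genes 7 were lower (21.2%) and none higher (edgeR quasi-likelihood test), compared with 12.6% and 6.31% of all genes. The list's median log2 fold change was -0.23, compared with 0.0044 over all genes tested. Piwil2, an Argonaute protein that binds piRNAs, had 65.8, 63.1 and 74.8 CPM at PND 13 and 13.4, 14.2 and 15.8 CPM at PND 40, a log2 fold change of -2.23 (SE 0.24, adjusted p = 5.41e-05). Gpat2, an acyltransferase of piRNA biogenesis, had 9.79, 23.9 and 19.5 CPM at PND 13 and 4.76, 3.15 and 2.50 CPM at PND 40, a log2 fold change of -2.36 (SE 0.38, adjusted p = 0.000661). Ddx4, the germ cell helicase VASA, had 218, 206 and 234 CPM at PND 13 and 106, 114 and 106 CPM at PND 40, a log2 fold change of -1.01 (SE 0.095, adjusted p = 2.6e-05). Every PND 13 pool of these genes lay above every PND 40 pool. Dicer1, which cuts the precursors of small RNAs and acts through endogenous siRNAs in mouse oocytes, was not called, at 1325 ± 169 and 1354 ± 20.04 CPM. Tnrc6a, the partner of Argonaute in repression, fell by 0.60 on the log2 scale but missed both criteria without PND 13 replicates 1 and 3, where 4 of the 7 were called.

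**Figure D3:**
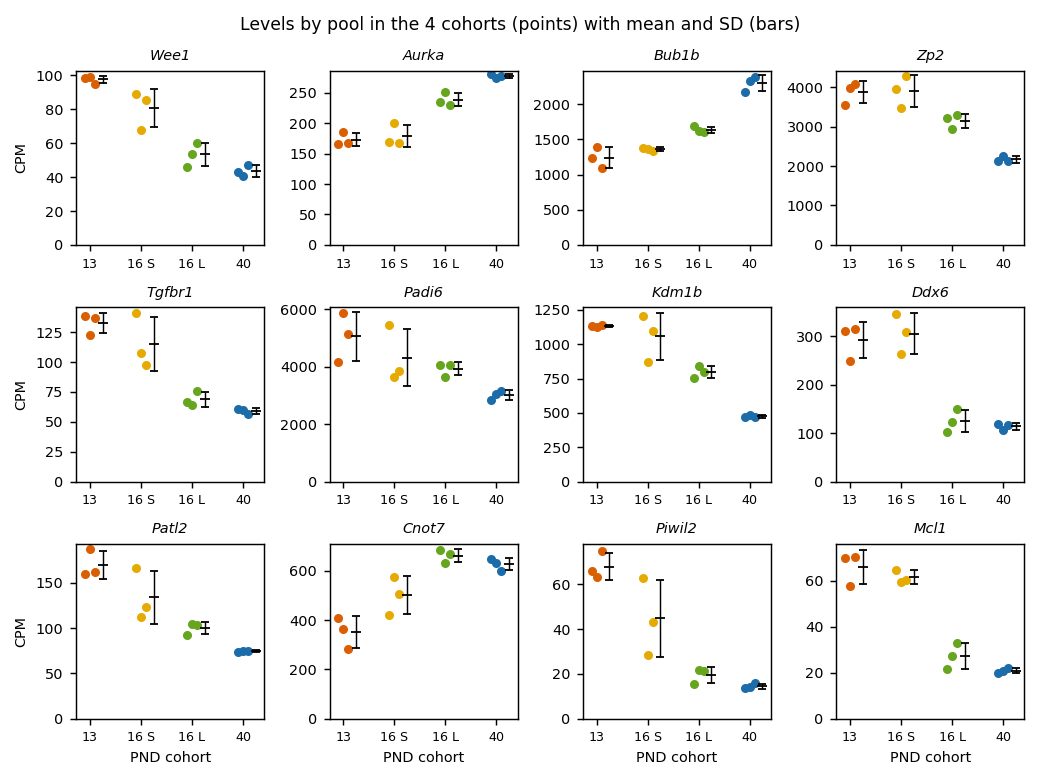
Level of 12 genes named for their roles in each pool of the cohorts, ordered by age with the PND 16 mice divided into small (16 S) and large (16 L), in CPM on linear axes from 0, with points for pools and black bars for the mean and SD (n = 3). Aurka, Bub1b and Cnot7 are higher and the other 9 lower at PND 40 than at PND 13, with PND 16 large between these cohorts or close to PND 40.

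The lists of growth signalling genes were compiled knowing that the study drew attention to PI3K, mTOR and Hippo genes in these samples, so their counts are not independent evidence of a direction. Of 39 PI3K pathway genes, 11 were lower (28.2%, compared with 12.6% of all genes) and none higher (edgeR quasi-likelihood test), 6 of them also without PND 13 replicates 1 and 3. Without the fold criterion 14 PI3K pathway genes were lower (35.9%, compared with 16.7% of all genes) and 5 higher (12.8%, compared with 16.3%). Pi4k2a, a phosphatidylinositol 4-kinase, had 81.7, 93.04 and 99.1 CPM at PND 13 and 36.03, 37.5 and 43.1 CPM at PND 40, a log2 fold change of -1.23 (SE 0.15, adjusted p = 7.9e-05). Pip4k2a, another lipid kinase, had 21.8, 24.8 and 21.2 CPM at PND 13 and 11.8, 8.20 and 10.99 CPM at PND 40, a log2 fold change of -1.13 (SE 0.17, adjusted p = 0.000291). Irs1 and Irs2, the adaptors that link insulin receptors to PI3K, fell by 1.86 and 2.74 on the log2 scale. The enzyme's own subunits Pik3ca and Pik3r1 were not called, with log2 fold changes of 0.18 (SE 0.075, adjusted p = 0.0864) and 0.14 (SE 0.074, adjusted p = 0.162).

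Of 45 mTOR pathway genes 7 were lower (15.6%) and 2 higher (4.44%), shares near those of all genes, and without the fold criterion 11 were lower and 10 higher. Rptor, the subunit that defines mTORC1, had 61.7, 69.4 and 70.1 CPM at PND 13 and 28.3, 32.5 and 38.1 CPM at PND 40, a log2 fold change of -1.03 (SE 0.16, adjusted p = 0.000405). Prkaa2, a catalytic subunit of the energy sensor AMPK, had 109, 105 and 114 CPM at PND 13 and 44.8, 53.1 and 45.4 CPM at PND 40, a log2 fold change of -1.19 (SE 0.12, adjusted p = 4.11e-05). Mtor was not called (log2 fold change -0.19, SE 0.085, adjusted p = 0.11), nor were its inhibitors Tsc1 and Tsc2 (log2 fold changes -0.42, SE 0.083, adjusted p = 0.00209 and -0.56, SE 0.091, adjusted p = 0.000579). Rptor, Prkaa2 and Sgk1 were the mTOR pathway genes still called without PND 13 replicates 1 and 3. Of 31 Hippo pathway genes 6 were lower (19.4%) and 4 higher (12.9%), compared with 12.6% and 6.31% of all genes, and 3 of the 6 and none of the 4 were called without PND 13 replicates 1 and 3 (edgeR). Frmd6, an upstream activator, had 13.5, 6.88 and 15.9 CPM at PND 13 and 2.36, 1.95 and 1.36 CPM at PND 40, a log2 fold change of -2.68 (SE 0.36, adjusted p = 0.00016). Its pools were unequal at PND 13, lowest in replicate 2, and still above PND 40. Vgll4, a competitor of YAP for TEAD factors, fell from 63.9 ± 3.35 to 38.1 ± 0.803 CPM, while Tead3, one of those factors, rose by a log2 fold change of 1.21. Yap1 was not called (log2 fold change 0.20, SE 0.10, adjusted p = 0.152).

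Of 16 Wnt ligands and Frizzled receptors tested, none was higher (edgeR quasi-likelihood test), compared with 6.31% of all genes. Lower genes numbered 6 (37.5%, compared with 12.6% of all genes), the largest share among the lists drawn. Beside Fzd5 and Wnt9a these were Fzd1, which had 2.34, 2.89 and 1.31 CPM at PND 13 and 0.343, 0.438 and 0.0735 CPM at PND 40, Fzd8, which had 9.41, 11.1 and 13.3 CPM at PND 13 and 3.30, 2.39 and 5.44 CPM at PND 40, and Wnt4 and Wnt5a, which fell by 3.85 and 1.40 on the log2 scale. The receptors and Wnt9a were still called without PND 13 replicates 1 and 3, and Wnt4 and Wnt5a were not. The list's median log2 fold change was -0.88 in all pools and -0.04 without those 2 pools, and the part of granulosa RNA in it was not tested.

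Survival genes of the oocyte split by gene, with 17.4% of the 23 tested lower and 8.70% higher, compared with 12.6% and 6.31% of all genes. Mcl1, an anti-apoptotic protein of the BCL2 family, had 70.02, 57.6 and 70.2 CPM at PND 13 and 19.9, 20.6 and 22.1 CPM at PND 40, a log2 fold change of -1.66 (SE 0.14, adjusted p = 2.6e-05). Bcl2l10, another member abundant in oocytes, had 568, 614 and 553 CPM at PND 13 and 883, 865 and 935 CPM at PND 40, a log2 fold change of 0.63 (SE 0.072, adjusted p = 5.78e-05). Trp63, the guardian of DNA integrity in resting oocytes, had 83.8, 76.7 and 81.4 CPM at PND 13 and 44.6, 46.4 and 42.6 CPM at PND 40, a log2 fold change of -0.86 (SE 0.11, adjusted p = 9.38e-05). Chek2, the kinase upstream of it, fell from 6.65 ± 1.29 to 3.53 ± 0.713 CPM. In all, 4 of 23 genes were lower and 2 higher, and Mcl1 and Trp63 kept their calls without PND 13 replicates 1 and 3.

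Of 27 synaptonemal complex and recombination genes 3 were higher (11.1%) and 2 lower (7.41%), and of 34 calcium genes 3 (8.82%) and 2 (5.88%), compared with 6.31% and 12.6% of all genes. Of 25 cohesin genes 1 was higher (4%) and 2 lower (8%), and of 47 spindle genes 1 (2.13%) and 2 (4.26%). Without the fold criterion 9 cohesin genes (36.0%) and 14 spindle genes (29.8%) were higher, compared with 16.3% of all genes. Mlh3, a crossover endonuclease, had 21.5, 20.2 and 22.9 CPM at PND 13 and 6.95, 8.80 and 9.30 CPM at PND 40, a log2 fold change of -1.37 (SE 0.20, adjusted p = 0.000286). Rad21l, a meiotic kleisin of cohesin, had 14.9, 19.97 and 14.7 CPM at PND 13 and 5.49, 7.84 and 8.01 CPM at PND 40, a log2 fold change of -1.21 (SE 0.20, adjusted p = 0.000691). Stim1, the sensor of the calcium store, had 15.3, 20.9 and 16.9 CPM at PND 13 and 6.56, 5.69 and 5.03 CPM at PND 40, a log2 fold change of -1.62 (SE 0.27, adjusted p = 0.000677). These 3 were still called without PND 13 replicates 1 and 3. Orai1, the channel that STIM1 opens, fell from 50.1 ± 1.81 to 32.4 ± 1.83 CPM, while Itpr1, the receptor that releases calcium at fertilization, was not called (log2 fold change -0.051, SE 0.079, adjusted p = 0.658).

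Most lists of housekeeping machinery held smaller shares of called genes than all genes tested, of which 6.31% were higher and 12.6% lower. Neither glycolysis (15 genes tested), the pyruvate and TCA cycle (32) nor nuclear pore proteins (21) had a called gene. Of them 1, 4 and 9 had an adjusted p of at most 0.05 in edgeR. The 9 nuclear pore genes were all higher (42.9%, compared with 16.3% of all genes), with a list median log2 fold change of 0.23. Of 62 cytosolic ribosomal proteins 2 were higher and 2 lower, and of 73 oxidative phosphorylation subunits 1 and 4. Of 77 mitochondrial ribosomal proteins 1 was higher and 5 lower, and of 52 translation initiation factors 1 and 2. Of 44 proteasome subunits 0 were higher and 2 lower. Without the fold criterion 15 proteasome subunits were higher (34.1%, compared with 16.3% of all genes) and 2 lower. Uqcrc1, a core subunit of respiratory complex III, had 26.9, 33.1 and 40.4 CPM at PND 13 and 8.02, 6.57 and 8.27 CPM at PND 40, a log2 fold change of -2.13 (SE 0.20, adjusted p = 2.6e-05). It was an exception, since the summed level of the oxidative phosphorylation subunits was 1885 to 2083 CPM at PND 13 and 1993 to 2130 CPM at PND 40. Of 22 genes of cholesterol synthesis 1 was higher and 1 lower, and Hmgcs1, which makes the precursor of mevalonate, rose from 596 ± 102 to 941 ± 28.4 CPM. Aminoacyl-tRNA synthetases were called in larger number, with 8 of 37 lower (21.6%) and 1 higher (2.70%), compared with 12.6% and 6.31% of all genes. Among the 8, 6 were mitochondrial enzymes with the suffix 2, such as Iars2. Iars2 had 18.8, 20.7 and 22.5 CPM at PND 13 and 6.48, 7.88 and 5.99 CPM at PND 40, a log2 fold change of -1.61 (SE 0.25, adjusted p = 0.000364). Of the 8, 3 were called without PND 13 replicates 1 and 3. RNA polymerase subunits, with 4 of 28 lower and 1 higher, were near the share of all genes. Of 46 replication-dependent histone genes, whose near-identical copies can share reads, 6 were lower (13.0%, compared with 12.6% of all genes) and none higher.

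The share of called members varied among gene families. Of all genes tested, 6.31% were higher and 12.6% lower, and the median log2 fold change was 0.0044. Of 346 Zfp zinc finger genes, mostly DNA-binding proteins, 77 were lower (22.3%) and 9 higher (2.60%), with a median log2 fold change of -0.25, and 33 of the 77 were called without PND 13 replicates 1 and 3. Zfp707 had 60.7, 62.2 and 75.03 CPM at PND 13 and 13.5, 15.7 and 16.2 CPM at PND 40, a log2 fold change of -2.12 (SE 0.23, adjusted p = 6.08e-05). Zfp217 had 195, 198 and 202 CPM at PND 13 and 104, 102 and 106 CPM at PND 40, a log2 fold change of -0.93 (SE 0.11, adjusted p = 5.84e-05). The reads of such related genes may be shared. Of 254 solute carriers 33 were lower and 19 higher, shares like those of all genes. Slc27a4, a fatty acid transporter, had 14.8, 15.6 and 17.1 CPM at PND 13 and 4.16, 3.90 and 4.26 CPM at PND 40, a log2 fold change of -1.94 (SE 0.18, adjusted p = 2.6e-05), and Slc15a5, a peptide transporter by family, had 4.25, 4.73 and 2.78 CPM at PND 13 and 13.2, 13.1 and 17.6 CPM at PND 40, a log2 fold change of 1.90 (SE 0.22, adjusted p = 5.78e-05). Of 30 cadherins and protocadherins 6 were higher (20%) and 6 lower (20%). The list's median log2 fold change was -0.26 in all pools and 0.23 without PND 13 replicates 1 and 3. Cdh1, the E-cadherin of the oocyte surface, had 442, 418 and 382 CPM at PND 13 and 659, 642 and 672 CPM at PND 40, a log2 fold change of 0.67 (SE 0.067, adjusted p = 3.65e-05). Cdh3, P-cadherin, had 192, 180.3 and 177 CPM at PND 13 and 115, 113 and 109 CPM at PND 40, a log2 fold change of -0.70 (SE 0.087, adjusted p = 8.55e-05). These cadherins moved in opposite directions with no overlap between cohorts. Of 25 ADAM and ADAMTS proteases 5 were higher (20%, compared with 6.31% of all genes) and 2 lower (8%), and 1 of each was still called without PND 13 replicates 1 and 3. Adam8, a sheddase, had 3.01, 1.99 and 4.42 CPM at PND 13 and 14.2, 15.1 and 15.5 CPM at PND 40 (log2 fold change 2.25, SE 0.29, adjusted p = 0.000124), and its PND 16 large pools, at 1.72 ± 0.185 CPM, lay below PND 40 (adjusted p = 0.000136). Kinesins were higher for 4 of 37 (10.8%) and lower for 2 (5.41%). Their median log2 fold change was 0.055 in all pools and 0.053 without those PND 13 pools. Kif26a had 12.1, 9.65 and 11.1 CPM at PND 13 and 40.5, 33.1 and 28.3 CPM at PND 40, a log2 fold change of 1.63 (SE 0.23, adjusted p = 0.000195).

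**Figure D4:**
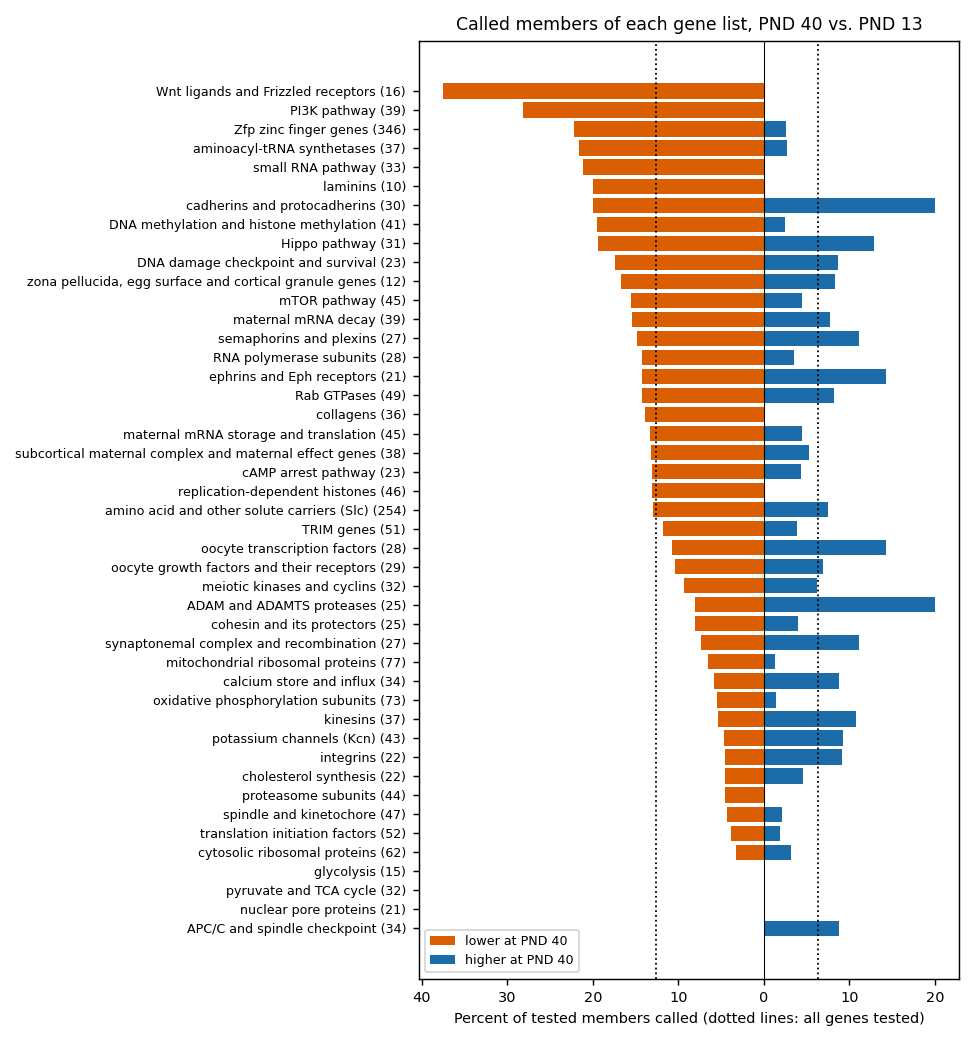
Percent of tested members called higher (blue, right) and lower (orange, left) at PND 40 for each gene list with at least 10 tested members, whose number is in parentheses, with dotted lines at the 6.31% and 12.6% of all genes tested. Wnt and Frizzled genes, PI3K pathway genes and Zfp genes extend beyond the line for lower genes, and glycolysis, TCA cycle and nuclear pore genes have no bar.

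The weight groups of PND 16 mice gave a view of the same genes in pools that did not enter the difference between PND 40 and PND 13, although all 12 pools shared the estimate of the spread. PND 16 large vs. PND 16 small called 6.19% of the genes tested, 1.43% higher and 4.76% lower in large mice. Of the 880 genes higher at PND 40, 102 (11.6%) were called higher in PND 16 large, and 761 (86.5%) had a positive log2 fold change, compared with 48.1% of all genes. Of the 1757 lower genes 535 (30.4%) were called lower, and 1648 (93.8%) had a negative one. The median log2 fold change between the PND 16 groups was 0.37 for the higher genes and -0.63 for the lower genes, compared with -0.02 for all genes. The PND 16 small pools were themselves uneven in granulosa RNA, with summed levels of 561, 1049 and 687 CPM, against 672 to 727 CPM in PND 16 large. Inha had 4.42, 130 and 16.5 CPM in PND 16 small and 20.2, 20.7 and 19.7 CPM in PND 16 large. The part of this unevenness in the overlap was not tested. Mcl1 went from 61.6 ± 2.91 CPM in small to 27.2 ± 5.68 CPM in large mice and Ddx6 from 306 ± 41.7 to 125 ± 23.4 CPM (adjusted p = 0.00153 and 0.00134), most of the way to PND 40. Kdm1b, at 1058 ± 171 and 796 ± 41.8 CPM, and Bub1b, at 1360.1 ± 26.6 and 1635 ± 43.5 CPM, changed less than 1.5-fold there and differed again between PND 16 large and PND 40 (adjusted p = 0.00108 and 0.00412). Trim35, a ubiquitin ligase, had 17.5, 19.5 and 25.9 CPM at PND 13 and 39.8, 35.8 and 42.9 CPM at PND 40, with 13.6 ± 1.53 CPM in PND 16 large (adjusted p = 0.000432 against PND 40).

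The called genes differed in gene structure as GENCODE M21 draws it on GRCm38. The median summed exon length was 3457 bases for the 880 higher genes, 3752 for the 1757 lower genes and 3333 for all genes tested, and 98.6% of genes tested had a value. The median span from start to end was 39034 bases for the higher genes and 21892 for the lower genes, compared with 25959 for all. With the genes divided by exon length into 5 equal groups, the share called lower was 7.60% in the shortest group, of at most 1862 bases, and 12.1% to 15.4% in the other groups, whereas the share called higher was 5.88% to 7.21% in all of them. The shares on the X chromosome were 3.90%, 3.79% and 3.58% for higher, lower and all genes, and 95.8%, 98.0% and 96.1% were protein-coding. Several genes named above overlap another gene, among them Wee1, Cdk2, Kdm1b, Kdm5a, Patl2, Cnot7, Dcp1a, Ago2, Iars2, Gin1, Heph and Lmo3, and the strand setting of the counting is not given in the sources used here.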

How the data were processed

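RNA-Seq was performed on 12 pools of CD-1 mouse oocytes, 3 in each of 4 cohorts. Directional libraries were prepared after depletion of ribosomal RNA and sequenced on a HiSeq. The submitters' processing notes name FastQC, STAR, HTSeq, DESeq2, HOMER and mm10, without versions. The authors deposited raw read counts for 24562 genes per pool, and log2 values, made by dividing the counts by pool size factors, adding 1 and taking log2.

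The sample labels gave cohorts and replicate numbers. Genes were kept by filterByExpr (minimum count 10), which left 13943. One model of the 4 cohorts was fitted to the counts of all 12 pools by edgeR 4.0.16 (R 4.3.3) with TMM factors and a robust quasi-likelihood test, two-sided. The contrasts were PND 40 vs. PND 13, PND 16 large vs. PND 16 small and PND 40 vs. PND 16 large. The Benjamini-Hochberg adjustment ran over all genes tested, and calls used the study's thresholds, an adjusted p up to 0.05 with a 1.5-fold change or more. Standard errors were taken as the size of the log2 fold change over the root of its F statistic. Depth ranged from 20153626 to 27418358 counts in the 6 pools compared, and without molecular identifiers the spread between pools, not counting error, was used. Pools of a cohort differed by more than sampling noise (chi-square per gene, 9.70 to 36.4). The procedure was also run on simulated counts. These held no uneven granulosa RNA and no unlike pool, so they do not bear on those features of the data.

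Members of 51 lists were looked up by symbol or, for families, by the start of the symbol. The comparison, members and lists were chosen with earlier results of these data known. Named genes were the 12 largest called changes in each direction at 10 CPM or more without overlap, key members of the lists fixed by hand, and up to 4 called members per list by adjusted p, and a called list member outside these is given by its log2 fold change alone. Gene structure came from GENCODE M21 on GRCm38 and promoters from RefSeq on GRCm38.p6. The alternatives were RLE, upper quartile and total-count scaling, 2 other filters, the 6 pools alone, each pool left out, both granulosa-rich PND 13 pools left out, the granulosa level as covariate, the replicate block, limma 3.58.1 on the log2 values with a pseudocount of 1 or 0.1, DESeq2 1.42.0 and no fold criterion.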

Additional observations from a re-analysis of the deposited data

How the results depend on the processing

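The number of called genes was 2637, with 880 higher and 1757 lower at PND 40. It was 1300 (396 higher, 904 lower) without PND 13 replicates 1 and 3, where fewer samples were fitted, and 4612 (2277 higher, 2335 lower) without the fold criterion. Leaving out 1 pool at a time gave 1934 to 2915 genes, 574 to 914 higher and 1360 to 2001 lower, the fewest without PND 13 replicate 3, where 574 were higher. All other settings stayed within 1.5 times the count, from 2413 with the stricter filter to 2964 with DESeq2, and no called gene reversed into a call of the opposite direction in any setting. Under total-count scaling the median log2 fold change over all genes went from 0.0044 to -0.07 and the share of lower genes from 66.6% to 74.2%. With the replicate number as a block the count was 2419 (800 higher, 1619 lower). Deviations of same-numbered PND 13 and PND 40 pools correlated across genes at 0.0028, -0.08 and -0.05. These values gave no sign of pairing by number between these cohorts, and a shared preparation was not tested. Of the 186 called genes of the naming rule, 108 kept their call without PND 13 replicates 1 and 3, 155 without PND 13 replicate 3 and 169 with the granulosa level as covariate. That covariate was the log2 of the summed level of the 35 granulosa genes. Serpine2 and Esr2, large parts of the sum, did not follow Inha and Foxl2, so the covariate does not isolate granulosa RNA. Genes below 1 CPM in a cohort, such as Fzd1 at PND 40, rest on few counts. With 3 pools per cohort, small changes could be missed, and the part of granulosa RNA in each call was not tested.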
